A study of Mus musculus with 4 samples.

Results

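The 8 genes described here make up the core of glucocorticoid signalling in the kidney, out of 31053 genes counted in every library. They are 4 target genes of the hormone (Zbtb16, Tsc22d3, Fkbp5 and Klf9), the glucocorticoid receptor Nr3c1, the mineralocorticoid receptor Nr3c2, and the enzymes Hsd11b1 and Hsd11b2. They were selected on an earlier reading of these same libraries, in which Zbtb16 and Tsc22d3 fell in proximal tubule cells at 12 h. Their levels over time in proximal tubule are therefore a description, and nothing is supported with them.

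The tissue was kidney of C57BL/6 mice aged 10 weeks, dissociated with enzymes, cleared of dead cells and read cell by cell with the 10x Genomics 3' V3 kit. FGF23 is a bone-derived hormone that lowers phosphate reabsorption in the proximal tubule. The 1 h, 4 h and 12 h libraries came from mice that had 1 intraperitoneal dose of 10 µg rhFGF23 (recombinant human FGF23), and the label of the 0 h library gives a dose of 0 µg. Whether the 0 h mice received a saline injection is not settled by the sources used here. Kidneys of males and females were digested together, the number of animals is not given in the labels, and all 4 groups share the strain, with no altered allele named. With 1 library per group there is no replicate, no test across samples and no p-value. Intervals below are exact 95% intervals and cover counting error only.

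The genes lie apart in the genome (GRCm38, GENCODE vM21). Zbtb16 (ENSMUSG00000066687) spans chr9:48654297-48836222 on the minus strand, Tsc22d3 (ENSMUSG00000031431) chrX:140539528-140600659 on the minus strand, Fkbp5 (ENSMUSG00000024222) chr17:28399094-28517527 on the minus strand, and Klf9 (ENSMUSG00000033863) chr19:23141226-23168134 on the plus strand. Nr3c1 (ENSMUSG00000024431) spans chr18:39410545-39519421 on the minus strand and Nr3c2 (ENSMUSG00000031618) chr8:76899442-77245012 on the plus strand. Hsd11b1 (ENSMUSG00000016194) spans chr1:193221634-193264075 on the minus strand and Hsd11b2 (ENSMUSG00000031891) chr8:105518755-105523988 on the plus strand. Hsd11b1 overlaps the laminin gene Lamb3 and Fkbp5 overlaps an antisense transcript, both on the opposite strand, and the strand setting of the authors' counting is not given in the sources used here.

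Glucocorticoids bind NR3C1, which moves to the nucleus and switches target genes on. NR3C2 binds the same hormone as well as aldosterone. HSD11B2 inactivates glucocorticoid inside aldosterone target cells, which protects NR3C2 there, and HSD11B1 regenerates active glucocorticoid. Among the targets, Zbtb16 encodes the zinc finger repressor PLZF, Tsc22d3 encodes the anti-inflammatory protein GILZ, Fkbp5 encodes a co-chaperone that lowers the receptor's hormone affinity, and Klf9 encodes a Krüppel-like transcription factor. Glucocorticoid in blood follows the time of day and rises with stress. Neither hormone level nor time of day is given in the labels.

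The DNA motif of the receptor is a pair of half-sites, AGAACA and TGTTCT, 3 bases apart. RefSeq promoter windows (GRCm38.p6, the 250 bases before an annotated start) matched 5 of the 8 genes in 7 windows: Hsd11b1, Nr3c2, Fkbp5, Klf9 and Tsc22d3, which has 3. Searched on both strands for AGAACA or TGTTCT, which are each other's reverse complement, 1 of the 7 windows held a half-site, in Tsc22d3, 185 bases before that start. Of all 32851 windows of the same length, 5284 (16.085%) held a half-site and 3 held the spaced pair (0.0091%). The Tsc22d3 window is shown because it holds the match, and the windows of Fkbp5 and Klf9 because these targets moved and theirs hold none. Capitals mark the half-site, letters run 5′ to 3′ on the gene's strand, and bases that GENCODE places in an exon of the gene are left out. The printed bases are chrX:140600660-140600772 (minus strand, 113 bases), chr17:28486150-28486399 (minus strand) and chr19:23140976-23141225 (plus strand).
Tsc22d3: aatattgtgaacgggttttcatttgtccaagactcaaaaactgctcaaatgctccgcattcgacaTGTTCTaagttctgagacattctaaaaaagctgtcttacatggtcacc
Fkbp5: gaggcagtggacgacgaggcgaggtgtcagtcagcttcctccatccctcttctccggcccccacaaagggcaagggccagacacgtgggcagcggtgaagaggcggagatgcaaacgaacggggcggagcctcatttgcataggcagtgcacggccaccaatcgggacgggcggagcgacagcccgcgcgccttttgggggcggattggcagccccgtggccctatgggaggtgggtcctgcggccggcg
Klf9: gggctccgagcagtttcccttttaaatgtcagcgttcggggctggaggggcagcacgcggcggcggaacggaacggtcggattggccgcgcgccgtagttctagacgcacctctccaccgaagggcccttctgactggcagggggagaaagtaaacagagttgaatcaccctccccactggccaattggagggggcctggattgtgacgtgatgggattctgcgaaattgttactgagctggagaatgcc
A match is a description of the letters, and the windows leave out introns and distant enhancers.

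The 4 libraries held 12245 to 13813 barcodes and 139675666 to 158838728 UMIs (unique molecular identifiers, one per captured transcript). After filters 8766 to 10044 cells per library were analysed, with medians of 8829 to 11220 UMIs. Cells were clustered with the 8 genes left out, and clusters were called "like" a cell type by listed markers, which left 2.15% to 3.49% of cells unnamed. All 14 listed markers of the proximal tubule (PT) were detected in PT-like cells of every library. They were also detected in endothelial-like cells of every library, so detection does not set the PT-like class apart. PT-like cells made up 67.8% to 72.3% of cells. The S3 segment's share of them was 35.1%, 29.1%, 26.7% and 20.8% at 0, 1, 4 and 12 h. Haemoglobin and other erythroid markers in PT-like cells summed to 20.9, 0.2, 3.3 and 160 CPM (UMIs of a gene for each 1e6 UMIs of the class), and their part in the results was not tested. Pairs of libraries shared 36 to 57 cell barcodes. Cells were called female from Xist and male from 4 Y-linked genes, and in each library sex and animal cannot be told apart.

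Zbtb16 in PT-like cells was at 3.45, 3.83, 5.21 and 0.184 CPM at 0, 1, 4 and 12 h, from 306, 351, 509 and 15 UMIs. The 12 h library stood far below the others, with a log2 ratio to 0 h of -4.23 (-5.09 to -3.49). Tsc22d3 was at 29.3, 21.3, 24.7 and 16.3 CPM, lowest at 12 h with a log2 ratio of -0.85 (-0.95 to -0.75). Fkbp5 was at 35.5, 34.3, 44.3 and 25.4 CPM. It was highest at 4 h (log2 ratio 0.32, 0.25 to 0.39) and lowest at 12 h (-0.48, -0.56 to -0.40), both within 1.5-fold of 0 h. Klf9 was at 175, 222, 131 and 155 CPM, highest at 1 h (log2 ratio 0.35, 0.31 to 0.38) and lowest at 4 h (-0.42, -0.45 to -0.38). The median log2 ratio of the 4 targets was 0.05, 0.04 and -0.67 at 1, 4 and 12 h, beside 0.01, 0.04 and 0.02 over all genes.

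A gene was called higher or lower where it differed from 0 h by 1.5-fold or more with at least 100 UMIs over both libraries. All 8 genes passed that count in PT-like cells at each time. At 1 h 0 of 8 were called, beside 1.45% of all tested genes higher and 1.93% lower. At 4 h 2 of 8 were called higher, Zbtb16 and Hsd11b2, beside 6.33% of genes higher and 4.93% lower. At 12 h 3 of 8 were called lower, Zbtb16, Tsc22d3 and Hsd11b1, beside 4.38% of genes lower and 4.62% higher. The genes were chosen with the 12 h values known, so these counts are not read against the background. The Hsd11b2 call rested on 2 cells. The Zbtb16 call at 4 h lay just past the limit (log2 ratio 0.59, 0.39 to 0.80) and held in female-called cells but not in male-called cells.

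The level of Zbtb16 at 4 h in the whole PT-like class described neither sex. In female-called cells of the S1 and S2 segments (PT-S1/S2-like, 1304 to 1799 cells per library) Zbtb16 was at 1.39, 1.30, 18.2 and 0.113 CPM at 0, 1, 4 and 12 h, from 23, 27, 436 and 2 UMIs. The 4 h value stood alone, and its log2 ratio to 0 h was 3.71 (3.11 to 4.39). Male-called cells of the same clusters (1450 to 1715 per library) were at 5.60, 6.91, 0.742 and 0.249 CPM, from 105, 158, 18 and 6 UMIs. They were low already at 4 h (log2 ratio -2.92, -3.73 to -2.19). Within the 4 h library female-called cells were 24.5-fold higher than male-called cells (log2 4.61, 3.94 to 5.38), while within the 0 h library they were lower (log2 -2.01, -2.73 to -1.35). At 12 h the sexes had 2 and 6 UMIs. Only 1 of the PT-S1/S2-like clusters held at least 100 cells of each sex in every library. The contrast of the sexes is therefore not matched by cluster. No female-called cell held more than 6 of the 436 UMIs at 4 h. With both sexes together, the PT-S1/S2-like clusters were unequal at 4 h. Zbtb16 was at 31.8 CPM in 1 of them (237 UMIs) and at 18.8 CPM in another (121 UMIs). The rest were at 8.49 CPM or less.

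Fkbp5, like Zbtb16, was lower in female-called cells at 0 h and higher in them at 4 h. Female-called PT-S1/S2-like cells were at 12.2, 36.0, 59.2 and 11.8 CPM at 0, 1, 4 and 12 h. The 1 h and 4 h libraries were called higher (log2 ratios 1.56, 1.34 to 1.79, and 2.28, 2.07 to 2.50), and the 12 h library was near 0 h (log2 ratio -0.04, -0.33 to 0.25). Male-called cells were at 45.7, 39.3, 42.9 and 33.1 CPM, with no time past 1.5-fold in the class as a whole. Female-called cells were below male-called cells at 0 h (log2 -1.91, -2.14 to -1.69) and 12 h (-1.48, -1.71 to -1.26) and above them at 4 h (0.46, 0.35 to 0.58).

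**Figure D1:**
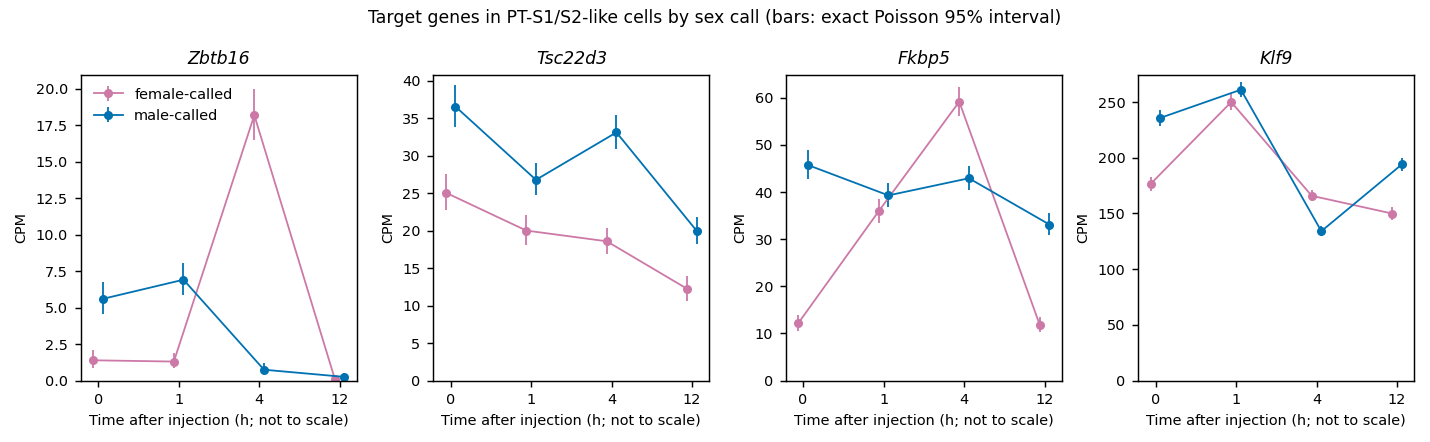
CPM of the 4 target genes (vertical axis, from 0) at 0, 1, 4 and 12 h (horizontal axis, spaced evenly) in female-called and male-called PT-S1/S2-like cells, 1 library per time, with exact Poisson 95% intervals. Zbtb16 peaks at 18.2 CPM at 4 h in female-called cells, where male-called cells are at 0.742 CPM, and Fkbp5 goes from 12.2 to 59.2 CPM in female-called cells while male-called cells stay between 33.1 and 45.7 CPM.

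Tsc22d3 and Klf9 did not show a female peak at 4 h. Tsc22d3 was at 25.1, 20.02, 18.6 and 12.2 CPM in the female-called cells of S1 and S2 and at 36.6, 26.8, 33.1 and 19.95 CPM in the male-called ones. Female-called cells were lower in all 4 libraries, and the 12 h library was the lowest in both sexes (log2 ratios -1.04, -1.28 to -0.79, and -0.87, -1.05 to -0.70). Klf9 was at 177, 250, 166 and 150 CPM in female-called and at 236, 261, 134 and 194 CPM in male-called cells. It was highest at 1 h in both, and male-called cells at 4 h were called lower (log2 ratio -0.81, -0.88 to -0.75), so that at 4 h the females were above the males (log2 0.31, 0.24 to 0.37).

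In female-called PT-S1/S2-like cells 2 of 6 tested members were called higher at 1 h, 3 of 7 higher at 4 h and 1 of 5 lower at 12 h. Those higher were Fkbp5 and Hsd11b2 at 1 h, joined by Zbtb16 at 4 h, and Tsc22d3 was lower at 12 h. The Hsd11b2 calls rested on few cells: 1 cell held 99 of 113 UMIs at 1 h, and 2 cells 170 of 197 at 4 h. Without cells of 10 or more of its UMIs Hsd11b2 was below its 0 h level of 1.75 CPM at both times. Of all tested genes there, 2.29%, 7.81% and 5.79% were higher and 1.48%, 3.32% and 2.19% lower at 1, 4 and 12 h. In male-called cells 0 of 6, 2 of 6 and 2 of 6 were called, all lower. Of all genes there, 1.53%, 5.42% and 4.30% were lower and 1.18%, 5.99% and 3.20% higher. Between the sexes in 1 library, 5.83%, 7.37%, 7.15% and 9.06% of genes were 1.5-fold or more higher in female-called PT-S1/S2-like cells at 0, 1, 4 and 12 h, and 6.11%, 5.26%, 4.18% and 3.65% lower. Of the members tested, 0 of 6, 1 of 7, 2 of 7 and 0 of 5 were higher and 3 of 6, 2 of 7, 2 of 7 and 3 of 5 lower. The members higher in females at 4 h were Zbtb16 and Hsd11b2, and the one at 1 h was Hsd11b2, which without cells of 10 or more of its UMIs was at 0.674 and 1.13 CPM at 1 h and 4 h in female-called cells. Members under 100 UMIs in a pair of values were not called.

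The sexes also differed within a single cluster of PT-S1/S2-like cells that held at least 100 cells of each sex in every library, a check chosen after seeing the data. There Zbtb16 at 4 h was at 14.5 CPM in female-called and 0.659 CPM in male-called cells, from 35 UMIs and 1 UMI. Fkbp5 was at 11.3, 38.5, 65.4 and 8.08 CPM in its female-called cells and at 62.8, 46.0, 33.6 and 23.4 CPM in its male-called cells. The male-called values of this cluster were past 1.5-fold below 0 h at 4 h and 12 h, unlike those of the whole class. Calling sex from at least 2 sex-linked UMIs left Zbtb16 at 18.4 and 0.980 CPM at 4 h.

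The S3 segment, the last stretch of the proximal tubule, was read in male-called cells, since the female-called ones gave few UMIs. Zbtb16 in male-called PT-S3-like cells was at 4.29, 4.61, 0.764 and 0.243 CPM, from 141, 132, 20 and 4 UMIs, low at 4 h and 12 h. In female-called PT-S3-like cells Zbtb16 had 0, 0, 7 and 0 UMIs. Fkbp5 was at 49.9, 38.9, 37.2 and 33.3 CPM in male-called PT-S3-like cells, within 1.5-fold of 0 h at each time.

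Other classes gave a mixed order of the sexes at 4 h. Klf9 was higher in female-called than in male-called cells at 4 h in distal convoluted or connecting tubule (DCT/CNT)-like cells (60.1 against 42.1 CPM), in thick ascending limb (TAL)-like cells (135 against 94.5 CPM) and in endothelial-like cells (421 against 270 CPM). Tsc22d3 at 4 h was at 235 against 123 CPM in endothelial-like cells (log2 0.94, 0.42 to 1.48) and at 263 against 102 CPM in T/NK-like cells (log2 1.37, 0.60 to 2.24). In B-cell-like cells it was at 632 against 631 CPM (log2 0.001, -0.58 to 0.61). Fkbp5 in DCT/CNT-like cells at 4 h was at 90.5 CPM in female-called and 91.9 CPM in male-called cells (log2 -0.02, -0.27 to 0.22). In endothelial-like and T/NK-like cells the Tsc22d3 difference lay between -0.17 and 0.12 on the log2 scale at 0 h and 1 h.

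**Figure D2:**
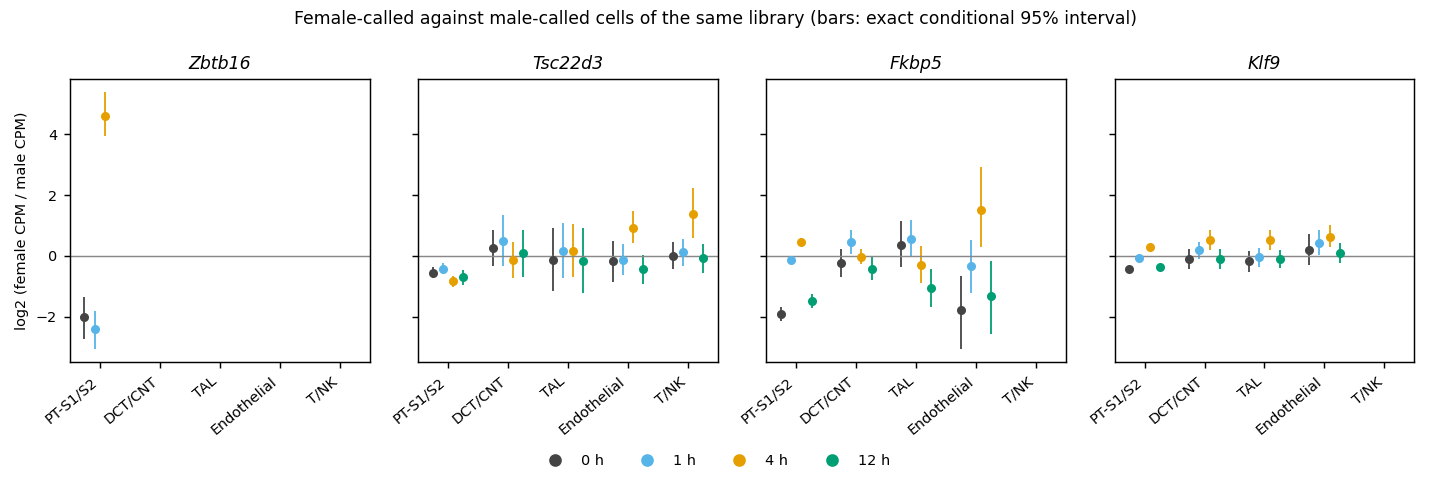
log2 ratio of female to male CPM (vertical axis) for the 4 target genes in 5 cell classes (horizontal axis) at 0, 1, 4 and 12 h, with exact conditional 95% intervals, drawn where both sexes together had at least 30 UMIs. Zbtb16 in PT-S1/S2-like cells runs from -2.01 at 0 h to 4.61 at 4 h, and Fkbp5 in DCT/CNT-like cells stays near 0 at 4 h.

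In DCT/CNT-like cells Fkbp5 was at 39.8, 47.7, 89.6 and 50.6 CPM and was called higher at 4 h (log2 ratio 1.17, 0.94 to 1.40). Tsc22d3 there was at 26.9, 11.6, 16.0 and 11.9 CPM, lower than 0 h in all 3 later libraries. Neutrophil markers in these cells summed to 117, 47.4, 16.8 and 17.8 CPM. The neutrophil gene S100a8 was at 48.3, 17.7, 0.897 and 0.609 CPM, also highest at 0 h. The part of neutrophil RNA in this Tsc22d3 level was not tested. Klf9 was at 82.4, 88.1, 49.5 and 59.1 CPM and was called lower at 4 h (log2 ratio -0.74, -0.94 to -0.53). Of all genes tested in DCT/CNT-like cells, 1.75%, 7.53% and 5.39% were lower and 2.13%, 6.54% and 4.85% higher at 1, 4 and 12 h, beside 1, 2 and 1 of 6 members lower and 0, 1 and 0 higher.

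In endothelial-like cells Fkbp5 went the other way, at 75.6, 84.9, 41.6 and 27.3 CPM, called lower at 4 h (log2 ratio -0.86, -1.42 to -0.30) and 12 h (-1.47, -2.05 to -0.89). In female-called cells alone the 4 h log2 ratio was 0.74 (-0.34 to 1.99), from 9 and 35 UMIs, too few for a call and with an interval that holds 0. In male-called cells it was -2.54 (-3.98 to -1.32), from 29 and 7 UMIs. Zbtb16 in endothelial-like cells had 1, 4, 6 and 32 UMIs (1.30, 4.71, 4.54 and 18.6 CPM), highest at 12 h, where PT-like cells were lowest. These counts are under the 100 UMIs of a call. Of all genes tested in this class, 1.03%, 3.22% and 2.28% were lower and 2.12%, 4.00% and 2.75% higher at 1, 4 and 12 h, beside 0, 1 and 1 of 4 members lower and 0 higher.

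Tsc22d3 was highest in B-cell-like and neutrophil-like cells, and 3 leukocyte classes were called lower late. B-cell-like cells were at 1239, 1205, 542 and 673 CPM (log2 ratios -1.19, -1.45 to -0.94 at 4 h and -0.88, -1.04 to -0.72 at 12 h). T/NK-like cells were at 401, 366, 204 and 174 CPM, and macrophage-like cells at 234, 299, 189 and 154 CPM. T/NK-like cells were called lower at 4 h and 12 h (log2 ratios -0.98 and -1.21) and macrophage-like cells at 12 h (-0.61, -0.90 to -0.32). Of all genes tested 1.07%, 6.95% and 4.68% were lower and 1.65%, 6.45% and 1.45% higher at 1, 4 and 12 h in B-cell-like cells. The shares were 4.09%, 4.90% and 5.09% lower and 2.23%, 3.80% and 2.39% higher in T/NK-like cells, and 2.93%, 9.03% and 4.07% lower and 3.30%, 10.3% and 6.01% higher in macrophage-like cells. In neutrophil-like cells Tsc22d3 was at 1186, 1262, 888 and 1196 CPM, within 1.5-fold of 0 h throughout. B-cell and T/NK markers summed to at most 3.4 and 1.2 CPM in PT-like cells, while neutrophil markers summed to 120, 81.9, 296 and 145 CPM. The neutrophil gene S100a8 alone was at 4.86, 2.91, 0.891 and 1.89 CPM there, lowest where that sum was highest. The part of neutrophil RNA in the PT-like Tsc22d3 level was not tested.

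Nr3c1, the glucocorticoid receptor, had UMIs in each of the 10 classes in each library. In PT-like cells it was at 54.9, 57.2, 72.1 and 67.7 CPM, 0.39 (0.34 to 0.45) above 0 h on the log2 scale at 4 h and within 1.5-fold at all times. It was higher at 4 h than at 0 h in both sexes of PT-S1/S2-like cells, within 1.5-fold, with 68.2 and 86.2 CPM in female-called and 61.5 and 87.1 CPM in male-called cells at 0 h and 4 h. By class, endothelial-like cells had 175, 181, 214 and 191 CPM, T/NK-like cells 86.0 to 129 CPM, macrophage-like cells 60.4 to 95.7 CPM, TAL-like cells 52.9 to 67.1 CPM, IC-like (intercalated) cells 25.9 to 36.0 CPM and DCT/CNT-like cells 19.8 to 24.997 CPM. Macrophage-like cells were called lower at 4 h and 12 h (log2 ratio -0.67 at each), and neutrophil-like cells had 7 UMIs at 12 h. Principal cell (PC)-like cells, at 13.2, 18.2, 9.98 and 13.9 CPM, were the lowest in each library, and at 0, 1 and 12 h their intervals overlapped the DCT/CNT-like ones. The intervals of endothelial-like and neutrophil-like cells overlapped at 0 h, 1 h and 4 h, as did those of IC-like and DCT/CNT-like cells at 0 h, 1 h and 4 h.

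Nr3c2, the mineralocorticoid receptor, was highest in PC-like cells, where Nr3c1 was lowest. PC-like cells were at 89.9, 80.5, 53.6 and 66.5 CPM. Below them were IC-like cells (31.9, 26.6, 20.8 and 19.3 CPM), DCT/CNT-like cells (27.5, 26.0, 19.1 and 23.0 CPM), TAL-like cells (13.7, 10.5, 7.56 and 13.0 CPM) and endothelial-like cells (2.61, 14.1, 6.05 and 16.3 CPM, from 2, 12, 8 and 28 UMIs). Endothelial-like cells were above TAL-like cells at 1 h and 12 h, with overlapping intervals. The 4 h library was the lowest in PC-like cells and was called lower there (log2 ratio -0.75, -1.18 to -0.31, from 82 and 102 UMIs). Of all genes tested in PC-like cells 2.05%, 3.26% and 4.53% were lower and 1.28%, 6.38% and 2.78% higher at 1, 4 and 12 h, beside 0 of 2, 1 of 4 and 0 of 3 members lower and 0 higher. IC-like and DCT/CNT-like levels overlapped in their intervals in all 4 libraries. PT-like cells were at 1.03, 1.28, 0.973 and 1.42 CPM, and macrophage-like cells had 0 UMIs in each library.

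Hsd11b2, the inactivating enzyme, was also highest in PC-like cells. PC-like cells were at 5467, 5455, 4088 and 5976 CPM, and each of their 67, 56, 111 and 84 cells held at least 10 Hsd11b2 UMIs. DCT/CNT-like cells were at 494, 539, 393 and 473 CPM, but 49, 73, 80 and 77 of their 495, 475, 655 and 607 cells held 96.7%, 97.4%, 94.2% and 94.2% of those UMIs. The level in both classes stayed within 1.5-fold of 0 h.

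Hsd11b2 in PT-like cells gave a call that rested on few cells. Its level was 1.23, 1.71, 2.67 and 1.14 CPM, called higher at 4 h (log2 ratio 1.12, 0.79 to 1.46). At 4 h 2 of 7237 cells held 170 of the 261 UMIs, 1 of them 146, and at 1 h 1 of 6333 cells held 99 of 157. Without cells of 10 or more Hsd11b2 UMIs the level was 1.23, 0.633, 0.932 and 1.14 CPM, and the 4 h log2 ratio was -0.40, of the opposite sign. Aqp2, the water channel that marks principal cells, moved alongside: it was at 1.14, 1.45, 4.26 and 1.02 CPM in PT-like cells.

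In IC-like cells Hsd11b2 was at 194, 13.9, 44.3 and 30.6 CPM, but at 0 h 6 of 76 cells held 214 of the 219 UMIs. Without cells of 10 or more Hsd11b2 UMIs the level was 4.43, 13.9, 10.6 and 11.8 CPM, from 5, 23, 31 and 22 UMIs. Aqp2 in IC-like cells was at 28.4, 10.9, 6.14 and 9.14 CPM and was also highest at 0 h. TAL-like cells had 42, 11, 2 and 3 Hsd11b2 UMIs, 38 of the 42 in 2 cells, with Aqp2 at 15.0, 1.14, 1.12 and 2.08 CPM. The 7 DCT/CNT markers summed to 4097, 1274, 2723 and 892 CPM in IC-like cells, with Slc12a3, the thiazide-sensitive transporter, at 169, 7.84, 8.18 and 20.96 CPM, and the 6 PC markers summed to 357, 290, 280 and 231 CPM. The part of RNA from these other tubule cells in the Hsd11b2 values was not tested.

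Hsd11b1, the activating enzyme, was concentrated in T/NK-like cells and in the S3 segment. T/NK-like cells were at 117, 121, 140 and 114 CPM, with overlapping intervals. PT-like cells were at 53.0, 47.4, 38.5 and 20.5 CPM and were called lower at 12 h (log2 ratio -1.37, -1.46 to -1.29), while the S3 share of these cells was 35.1% at 0 h and 20.8% at 12 h. Within PT-S3-like cells Hsd11b1 was at 103, 108, 94.5 and 53.7 CPM, with a log2 ratio of -0.95 (-1.04 to -0.86) at 12 h. In PT-S1/S2-like cells it was at 7.77, 9.39, 7.41 and 6.99 CPM, with no time past 1.5-fold. Its clusters were unequal: 1 of them held 205 of the 363 UMIs at 0 h and was at 51.0, 57.3, 27.7 and 21.8 CPM, and another was at 26.8, 20.4, 21.5 and 3.02 CPM, from 21, 26, 27 and 3 UMIs. The first of these was placed in S1 and S2 by a marker difference of 0.312 on the log2 scale, so the level of the class joins clusters with unequal courses.

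The S3-like cells came from 4 clusters with unequal levels. At 12 h against 0 h Hsd11b1 was at 36.5 against 76.7 CPM in the first, 30.6 against 80.1 CPM in the next, 337 against 405 CPM in the third, and 6.91 against 4.08 CPM in the fourth, the last from 16 and 7 UMIs. Male-called PT-S3-like cells were at 106, 112, 101 and 51.2 CPM. Female-called PT-S1/S2-like cells, at 3.62, 2.50, 3.17 and 3.34 CPM, were below male-called ones, at 11.04, 15.2, 11.2 and 9.97 CPM, in every library.

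**Figure D3:**
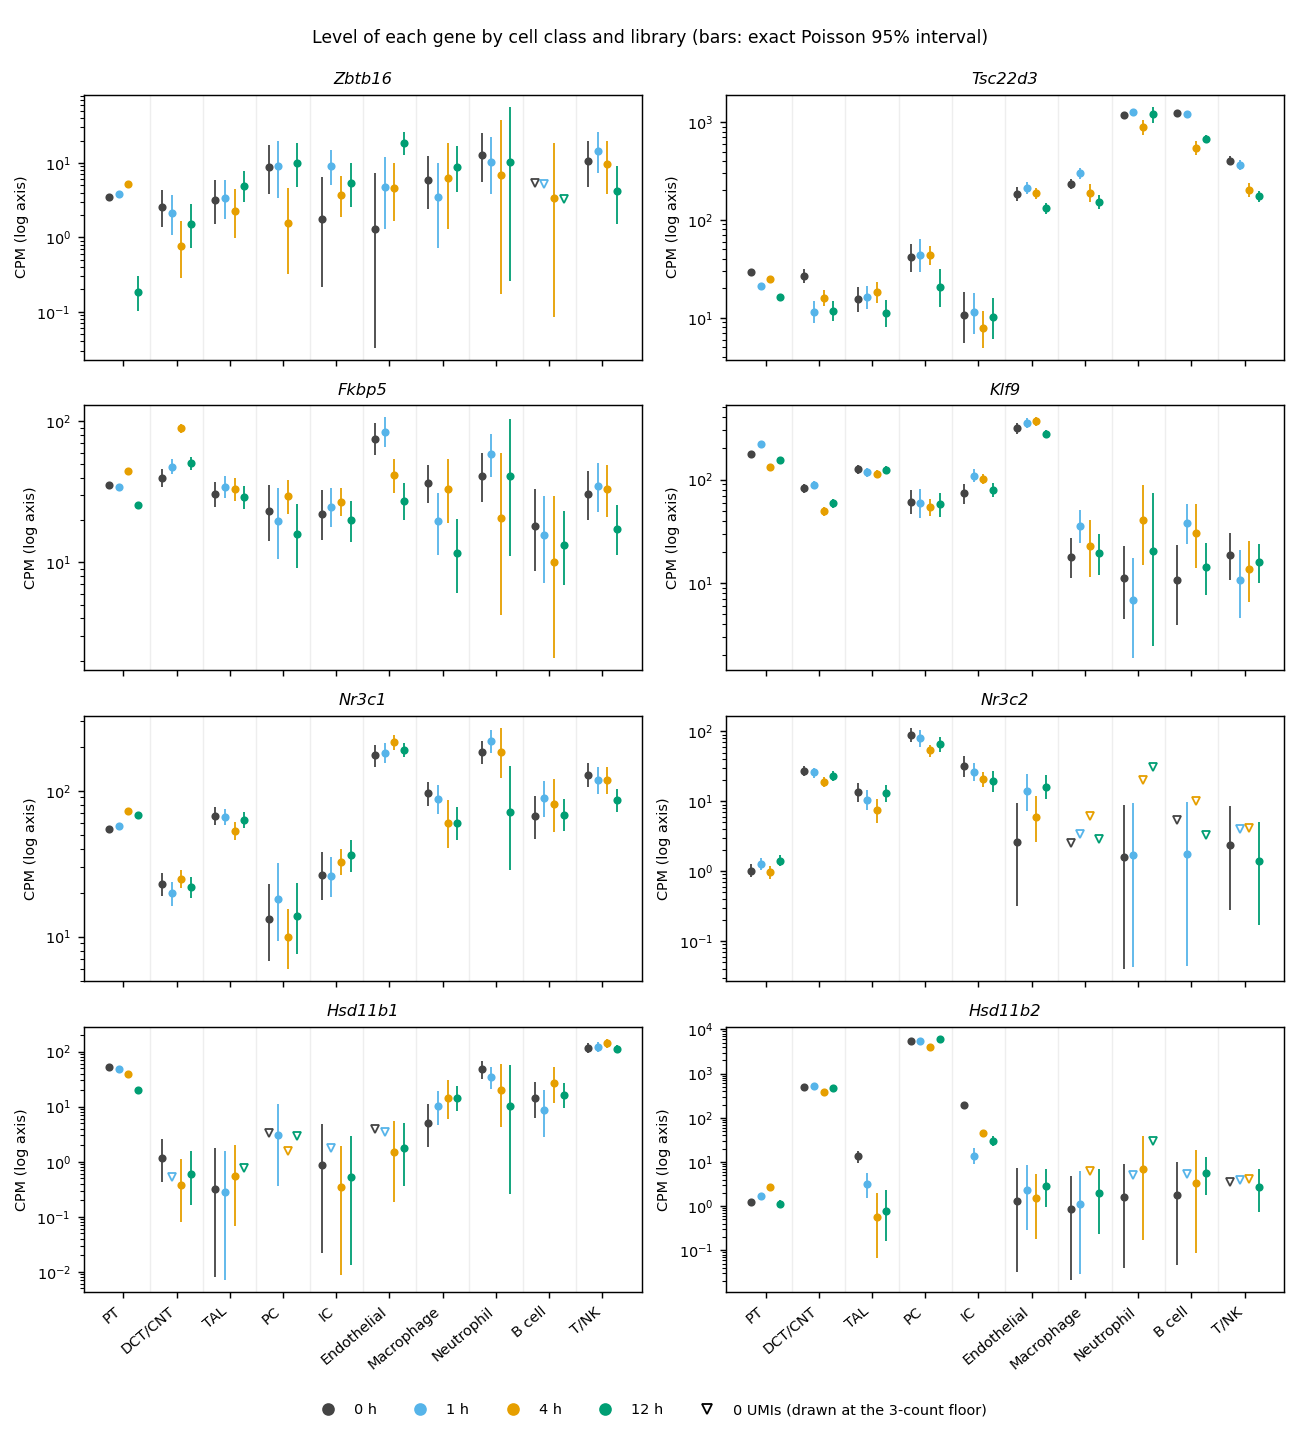
CPM (log axis) of each of the 8 genes in 10 cell classes (horizontal axis) at 0, 1, 4 and 12 h (colours), 1 library per time, with exact Poisson 95% intervals. Hsd11b2 and Nr3c2 are highest in PC-like cells, Nr3c1 is lowest there, Tsc22d3 reaches 1239 CPM in B-cell-like cells, and Zbtb16 in PT-like cells drops to 0.184 CPM at 12 h.

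A list of 24 other glucocorticoid-responsive genes was read in the same cells. Per1 is counted again among the clock genes below, and Sgk1 among the aldosterone-responsive genes, so these lists are not separate. In PT-like cells 21 of the 24 had enough UMIs, of which 7, 4 and 2 were called higher and 6, 9 and 13 lower at 1, 4 and 12 h. Their median log2 ratios were -0.05, -0.38 and -0.93, beside 0.01, 0.04 and 0.02 over all genes. Of all genes tested, 1.45%, 6.33% and 4.62% were higher and 1.93%, 4.93% and 4.38% lower. The metallothioneins Mt1 and Mt2, which bind zinc, rose most at 4 h, Mt1 from 24.8 to 289 CPM and Mt2 from 1.53 to 21.4 CPM, with the cell cycle inhibitor Cdkn1a (log2 ratio 1.55). Bcl6, a transcriptional repressor, was higher at 1 h (1.37) and lower at 12 h (-1.56). Lower at 1 h were Ddit4 (-1.68), Arl4d (-1.40) and Cebpd (-1.05), and at 4 h the phosphatase Dusp1 (-2.47), the lipase inhibitor Angptl4 (-1.67) and Arl4d (-1.25). At 12 h Arl4d (-2.58), Dusp1 (-2.27) and the kinase Sgk1 (-2.20) were lowest.

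The list was also read by sex. Within the 0 h library 5 of 18 genes were 1.5-fold or more higher and 9 lower in female-called than in male-called cells of S1 and S2, and within the 4 h library 6 of 19 were higher and 3 lower. The median log2 ratio of female to male was -0.59, -0.0051, 0.38 and 0.13 at 0, 1, 4 and 12 h, beside -0.02, 0.03, 0.06 and 0.11 over all genes. The sex difference at 0 h enters each ratio to 0 h that follows. In female-called PT-S1/S2-like cells 8, 6 and 2 of 17, 18 and 17 genes were called higher and 1, 2 and 7 lower at 1, 4 and 12 h, with medians of 0.47, 0.36 and -0.29. In male-called cells 5, 5 and 2 of 19 were called higher and 4, 8 and 13 lower, with medians of -0.11, -0.21 and -0.94. Sgk1 was at 80.1, 123, 101 and 11.4 CPM in female-called and at 49.9, 76.1, 17.6 and 8.23 CPM in male-called cells. Per1, a clock gene with a known glucocorticoid response, was at 8.38, 18.8, 9.84 and 2.27 CPM in female-called and at 8.90, 13.2, 2.02 and 2.83 CPM in male-called cells. Both genes were low in males and not in females at 4 h, and low in both at 12 h. Mt1 and Mt2 rose in both sexes at 4 h, more so in males, with log2 ratios of 2.71 and 1.94 in female-called and 4.03 and 5.82 in male-called cells.

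**Figure D4:**
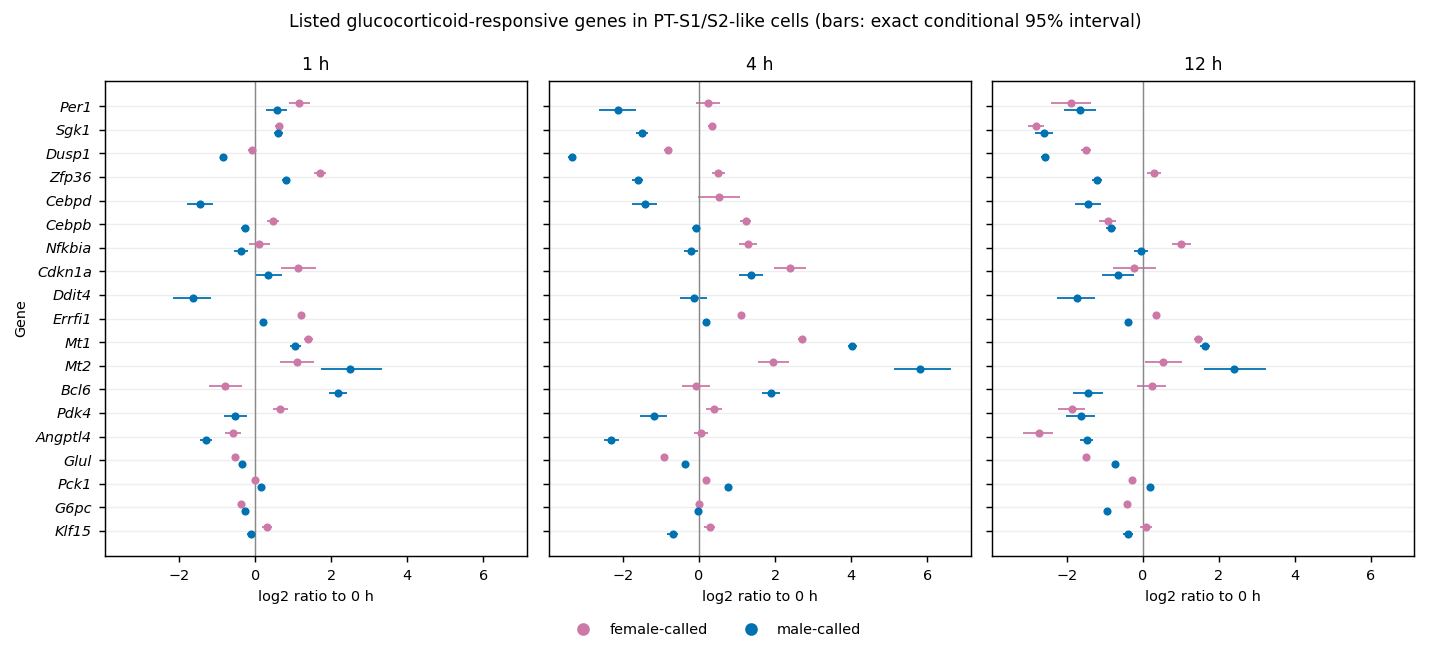
log2 ratio to 0 h (horizontal axis) of listed glucocorticoid-responsive genes (rows) at 1, 4 and 12 h (panels) in female-called and male-called PT-S1/S2-like cells, with exact conditional 95% intervals; genes under 100 UMIs over both libraries are not drawn. At 4 h Sgk1 is at 0.33 in female-called and -1.50 in male-called cells, and at 12 h it is at -2.81 and -2.60.

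Clock genes also differed between the sexes, and their part in the values above was not tested. In female-called PT-S1/S2-like cells Arntl, which encodes BMAL1, was at 3.19, 3.66, 19.0 and 10.1 CPM and Dbp, its output gene, at 51.5, 28.6, 3.38 and 10.6 CPM. Male-called cells had Arntl at 10.4, 13.5, 20.1 and 1.54 CPM and Dbp at 12.9, 5.90, 4.49 and 74.8 CPM. For both genes the order of the sexes at 12 h was the reverse of that at 0 h. In PT-like cells the medians of 5 genes of the Bmal1 phase were 0.29, 1.09 and -0.90 and those of 10 genes of the Dbp phase -0.24, -1.08 and -0.05 at 1, 4 and 12 h. The 12 h medians join values of opposite sign: in PT-S1/S2-like cells the Bmal1 phase was at 1.02 for females (3 of 4 called higher) and -2.43 for males (4 of 4 called lower), and the Dbp phase at -1.46 and 0.28. Cry1 (2.71) rose most and Dbp (-2.35), Nr1d1 (-2.13) and Ciart (-1.91) fell most at 4 h.

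Genes induced by tissue dissociation were read from a list of 12. In PT-like cells 4, 0 and 0 were called higher and 0, 2 and 6 lower at 1, 4 and 12 h. The shares of all genes were 1.45%, 6.33% and 4.62% higher and 1.93%, 4.93% and 4.38% lower. Junb (1.13), Atf3 (0.80) and Hspa1a (0.79) were higher at 1 h, and Atf3 (-4.97), Fos (-2.68) and Jun (-1.08) lower at 12 h. Over the 10 with enough UMIs in S1 and S2 the medians were 0.53, -0.08 and -0.36 for females and 0.11, 0.47 and -0.16 for males, and their part in the target gene values was not tested.

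The partners of the receptor fold it and carry its signal to chromatin. Hsp90aa1 is both in this list and among the dissociation genes above. Of 14 chaperones and coregulators in PT-like cells, 0, 1 and 0 were called higher and 0 lower at 1, 4 and 12 h, with medians of 0.04, 0.29 and -0.09. The 1 gene was Nrip1, a corepressor of nuclear receptors (0.75 at 4 h). Of the 14, 3 were called higher at 4 h in the male-called cells of S1 and S2, beside 5.99% of all genes there. In PT-like cells, where the genes that follow were also read, the shares of all genes were 1.45%, 6.33% and 4.62% higher at 1, 4 and 12 h. Lower were 1.93%, 4.93% and 4.38%. Of 7 tested genes of steroid supply and turnover, 2 were called higher at 4 h and at 12 h, the efflux pump genes Abcb1a (log2 ratios 1.03 and 2.10) and Abcb1b (0.91 and 1.47). Lower were Srd5a1 at 4 h (-0.69) and Srd5a2 (-0.84) and Akr1d1 (-0.80) at 12 h, which encode steroid reductases.

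Aldosterone-responsive genes were read in PC-like cells, where Nr3c2 and Hsd11b2 were highest. Of 10 tested genes 0, 0 and 0 were called higher and 1, 3 and 3 lower at 1, 4 and 12 h, beside the 2.05%, 3.26% and 4.53% of all genes lower there. The lower genes at 4 h and 12 h were Sgk1, Klk1 and Usp2, named after their values were seen. Sgk1 was at 904, 972, 125 and 132 CPM in PC-like cells. Klk1, a connecting tubule protease gene, was at 496, 22.8, 23.6 and 22.8 CPM there, so the 0 h library stood above the other 3. The sodium channel subunits Scnn1a, Scnn1b and Scnn1g stayed within 1.5-fold of 0 h. In DCT/CNT-like cells the same list gave another picture, with 2, 1 and 2 of 11 called higher and 0, 1 and 1 lower at 1, 4 and 12 h. Of all genes there, 2.13%, 6.54% and 4.85% were higher and 1.75%, 7.53% and 5.39% lower.

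Genes whose levels ran most like each member are given with Pearson's r over 40 values of log2(CPM + 1), 10 classes in 4 libraries, which share libraries and depth. Hsd11b2 was most like Scnn1g (0.976), Kcne1 (0.969) and Scnn1b (0.960), Nr3c2 like Unc13b (0.940), Cdc42ep5 (0.932) and Fzd3 (0.931), Nr3c1 like Arhgap26 (0.858), Pitpnc1 (0.847) and Msn (0.836), and Hsd11b1 like Slc16a6 (0.878), Susd3 (0.844) and Pdlim2 (0.838). For the targets, values were centred within each class so that r describes time. Klf9 was most like Selenom (0.810), Ptges2 (0.776) and Dnajb4 (0.760), Fkbp5 like Arglu1 (0.754), Snx3 (0.700) and Cyld (0.682), and Zbtb16 like Birc5 (0.700), Lnx1 (0.645) and Zfp612 (0.559). Zbtb16 had few UMIs outside PT-like cells, such as 8, 6, 3 and 10 in PC-like and 0, 0, 1 and 0 in B-cell-like cells. Its r values thus rest largely on few UMIs and are no sign of a shared time course. Rbm39 (0.702) and Ppp1r15a (0.697) were among the 3 most like Tsc22d3.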

How the data were processed

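Droplet single-cell RNA was measured in 4 mouse kidney libraries. The authors deposited count matrices of UMIs per gene and cell. Per the submitters' processing notes, Cell Ranger 3.1.0, STAR and Seurat were used with build mm10 (GRCm38), and further settings are not given in the sources used here. Barcodes with at least 300 genes and at most 50% mitochondrial UMIs were kept, and simulated doublets marked 7.50% to 9.68% of them, which were removed. Cells of all libraries were clustered together (2000 variable genes plus markers, 30 components, Leiden resolution 1.5, 50 clusters, leidenalg 0.10.2, scikit-learn 1.9.0, Python 3.11.15). Members, listed pathway genes, sex-linked, mitochondrial and ribosomal genes were left out of the clustering, except listed markers.

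A cluster was named where at least 3 markers of a class were on and at most 50% of its barcodes were doublets. No other class with 3 or more on could come within 0.5 on the log2 marker scale. Its 10 top genes had to hold a marker of the class, and no other class could have more there. PT clusters needed no such marker unless their cells were shallow. A cluster of 139 barcodes with 6 of 6 PC markers on and Hsd11b2 among its top genes stayed unnamed. The IC markers Aqp6, Slc4a1 and Kit were also among its top genes and outnumbered the PC markers there. Its cells are not in the PC-like levels. These naming thresholds were set after clusters were seen. The clusters and names were rebuilt here and may differ from the authors'. Counts were summed per class and library and divided by all UMIs (CPM). A 3' count is not scaled to gene length, so levels are compared between cells and not between genes. Log2 ratios to 0 h carry exact conditional binomial 95% intervals, and CPM exact Poisson ones; several reads of 1 UMI count once. The ratio code was tested on simulated data. The members and all lists were chosen with earlier results of these data known. Named were all 8 members and, from each list, up to the 3 largest rises and 3 largest falls past 1.5-fold per time in PT-like cells, and the 3 genes most like each member, of which 1 is not reported here. The alternatives were other limits on mitochondrial UMIs, doublets kept, equal weight per cell, other scaling, thinning to 2000 UMIs, 1 sex or segment alone, Leiden resolution 1.0 and other call limits.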

Additional observations from a re-analysis of the deposited data

Results flagged for a closer look

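Zbtb16 moved in opposite directions in the sexes at 4 h. Its log2 ratio to 0 h was 3.71 in female-called PT-S1/S2-like cells and -2.92 in male-called ones, each past 1.5-fold. The difference was not tested, since sex and animal cannot be told apart. In the 1 cluster that held both sexes Zbtb16 had 1 UMI at 0 h and 35 at 4 h in female-called cells, and 18 and 1 in male-called cells.

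Hsd11b2 moved in opposite directions at 4 h in PT-like cells (log2 ratio 1.12) and in IC-like cells (-2.13), and this difference was not tested either. In PT-like cells 2 of 7237 cells held 170 of the 261 UMIs at 4 h, and in IC-like cells 6 of 76 cells held 214 of the 219 UMIs at 0 h. Without cells of 10 or more Hsd11b2 UMIs both directions were reversed. The levels at 0 h and 4 h were then 1.23 and 0.932 CPM in PT-like cells. In IC-like cells they were 4.43 and 10.6 CPM, from 5 and 31 UMIs.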

How the results depend on the processing

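No paired analysis was possible because each group is 1 library and the labels carry no replicate numbers. With 1 library per group no replicate could be left out. As reported, 0, 2 and 3 members passed 1.5-fold in PT-like cells at 1, 4 and 12 h, and the 4 targets had median log2 ratios of 0.05, 0.04 and -0.67. Of 90 such values under the alternatives, 58 stayed within the stated limits and 32 moved. Female-called cells alone gave counts of 3 at 1 h and 1 at 12 h and medians of 0.24 and 1.09 at 1 and 4 h. The 1 h counts in female-called cells, here and below, include Hsd11b2, with 99 of its 113 UMIs in 1 cell. Male-called cells alone gave a median of -0.45 at 4 h. PT-S1/S2-like cells alone gave a count of 1 at 1 h and medians of 0.25, 0.34 and -0.55, and PT-S3-like cells alone counts of 1 at 1 h and 1 at 4 h and medians of -0.44 and -0.80 at 4 and 12 h. Within PT-S1/S2-like cells, settings added after seeing the data, female-called cells gave counts of 2 at 1 h and 1 at 12 h and medians of 0.20 and 1.095 at 1 and 4 h, and male-called cells a median of -0.48 at 4 h. With at most 25% mitochondrial UMIs the counts were 1 at 1 h and 1 at 4 h and the 4 h median -0.15. CPM without mitochondrial UMIs gave a count of 1 and a median of -0.052 at 4 h. Kept doublets, scaling by the median ratio of all genes and a 2-fold limit each gave a count of 1 at 4 h, thinning to 2000 UMIs a count of 1 at 4 h and medians of -0.18 and 0.14 at 1 and 4 h, and a fold limit below 1.5 counts of 3, 5 and 5. The cause of these moves was not tested.

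Among 1155 values for single genes, 901 stayed, 246 moved and 8 reversed. Zbtb16 in PT-like cells at 4 h, 0.59 as reported, was -2.66 in male-called cells, -2.04 in PT-S3-like cells and -2.92 in male-called cells of S1 and S2. Hsd11b2 there, 1.12 as reported, was -0.49, -0.35 and -0.66 in the same cells, and -0.40 without cells of 10 or more Hsd11b2 UMIs. Fkbp5 in endothelial-like cells at 4 h, -0.86 as reported, was 0.74 in female-called cells alone, from 9 and 35 UMIs. Zbtb16 at 12 h in PT-like cells ranged from -4.49 to -3.61 over its alternatives. Zbtb16 in the sexes rests on few UMIs (2 and 6 at 12 h), and depth sets no closer limit there.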

Other observations

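In T/NK-like cells Hsd11b1, which regenerates active glucocorticoid, was at 190 CPM in female-called and 82.7 CPM in male-called cells at 4 h (log2 1.20, 0.33 to 2.18, from 67 and 13 UMIs), beside 103 and 102 CPM at 0 h. In DCT/CNT-like cells at 0 h Hsd11b2 was at 294 CPM in female-called and 875 CPM in male-called cells, from 813 and 1293 UMIs. At 4 h it was at 412 and 441 CPM. At 0 h 49 of the 495 DCT/CNT-like cells held 96.7% of the Hsd11b2 UMIs of the class. The 0 h values of the sexes thus rest on few cells, and the split of these cells between the sexes was not tested. Sgk1 in endothelial-like cells was at 1244, 1422 and 1297 CPM at 0, 4 and 12 h, while in PC-like cells it was at 904, 125 and 132 CPM at these times.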
